A study of Mus musculus with 12 samples.

Results

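Chemokine ligand genes were examined in BV2 cells, an established line of mouse microglia, the resident macrophages of the brain. The 10 members (Ccl2, Ccl3, Ccl4, Ccl6, Ccl7, Ccl9, Ccl12, Cxcl2, Cxcl10 and Cxcl16) were chosen by symbol from the 24934 genes of the deposited count table, and all 10 were found there. RNA had been sequenced from 12 libraries in 3 groups of 4. The Acacetin group, according to the design text of the series, went through oxygen and glucose deprivation (OGD) with re-oxygenation and then received 10 µM acacetin, a plant flavone; its own treatment label names only acacetin. The OGD group had the deprivation and re-oxygenation without acacetin, and the Control group carries no treatment in the labels. All 3 groups share the same cell line, which stands in culture for ischaemic injury of microglia and holds no neurons, astrocytes or blood leukocytes. Separate cultures are not stated for the 4 libraries within a group, so that p-values measure the spread between these samples, which may be technical.

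Chemokines are small secreted proteins that bind G protein-coupled receptors and direct the movement of leukocytes along a gradient. CC chemokines such as Ccl2, Ccl7 and Ccl12 attract monocytes mainly through Ccr2, Ccl3 and Ccl4 attract macrophages and T cells, and Ccl6 and Ccl9 are rodent ligands of Ccr1, on which Ccl3 also acts. Among the CXC chemokines, Cxcl2 recruits neutrophils through Cxcr2, Cxcl10 is an interferon-inducible ligand of Cxcr3, and Cxcl16 is a membrane-bound ligand of Cxcr6. Activated microglia are a known source of several of these proteins in the ischaemic brain, and NF-kB and interferon regulatory factors are textbook activators of their genes.

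All but Cxcl2 and Cxcl10, on chromosome 5, lie on chromosome 11. In the RefSeq gene order of GRCm38.p6, Ccl2 and Ccl7 are neighbours, followed by Ccl11, Ccl12 and Ccl8, and Ccl9, Ccl6, Ccl3 and Ccl4 follow each other without another coding gene between them. RefSeq promoter windows of that build, which span 250 bases before to 50 bases after the gene start, were at hand for 6 of the 10 members (Ccl3, Ccl6, Ccl9, Ccl12, Cxcl2 and Cxcl10). The submitters name build GRCm39 for their own processing, so these windows serve for their letters only and not to place reads. The 4 windows below were picked after values were seen, as examples of members that were lower (Ccl3, Cxcl2, Cxcl10) or higher (Ccl6) in Acacetin against Control: Ccl3 (chr11:83649329-83649628, minus strand), Cxcl2 (chr5:90903649-90903948, plus strand), Cxcl10 (chr5:92348840-92349139, minus strand) and Ccl6 (chr11:83593038-83593337, minus strand). Each is written 5′ to 3′ on the strand of the gene, and capitals mark matches to NF-kB-like letters (GGGNNTTCC or GGGNNNTTCC), to interferon regulatory factor-like letters (GAAANNGAAA) or to AP-1-like letters (TGANTCA), searched on both strands.
Ccl3: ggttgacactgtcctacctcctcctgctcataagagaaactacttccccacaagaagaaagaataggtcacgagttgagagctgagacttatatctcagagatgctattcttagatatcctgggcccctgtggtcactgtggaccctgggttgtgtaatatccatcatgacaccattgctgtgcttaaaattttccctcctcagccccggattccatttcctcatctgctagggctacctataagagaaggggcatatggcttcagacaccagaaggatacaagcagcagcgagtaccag
Cxcl2: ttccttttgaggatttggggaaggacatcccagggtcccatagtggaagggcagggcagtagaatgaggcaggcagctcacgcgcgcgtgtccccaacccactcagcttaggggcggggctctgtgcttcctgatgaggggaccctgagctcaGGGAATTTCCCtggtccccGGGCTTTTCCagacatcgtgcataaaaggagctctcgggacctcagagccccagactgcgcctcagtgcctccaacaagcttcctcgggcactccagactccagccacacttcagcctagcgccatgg
Cxcl10: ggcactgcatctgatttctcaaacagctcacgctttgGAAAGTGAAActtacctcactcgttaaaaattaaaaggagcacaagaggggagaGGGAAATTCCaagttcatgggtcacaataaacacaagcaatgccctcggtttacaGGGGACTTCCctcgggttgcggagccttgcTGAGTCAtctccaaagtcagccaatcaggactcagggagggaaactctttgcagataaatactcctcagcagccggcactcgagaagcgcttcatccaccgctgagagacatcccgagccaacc
Ccl6: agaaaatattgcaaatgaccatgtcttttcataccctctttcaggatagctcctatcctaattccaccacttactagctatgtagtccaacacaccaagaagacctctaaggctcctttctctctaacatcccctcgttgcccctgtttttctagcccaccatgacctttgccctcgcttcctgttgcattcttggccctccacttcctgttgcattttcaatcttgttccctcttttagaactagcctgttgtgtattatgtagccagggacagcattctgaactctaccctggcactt

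The Cxcl2 window held an NF-kB-like match from 97 to 88 bases before the start, which was also read on the other strand from 96 to 87, and a further match from 78 to 69. In the Cxcl10 window, NF-kB-like letters stood from 159 to 150 and from 104 to 95 bases before the start, where both forms of the motif overlapped, the interferon-type letters from 213 to 204 and the AP-1-like letters from 74 to 68. Ccl9, whose window is not printed, had NF-kB-like letters from 35 to 26 and AP-1-like letters from 53 to 47 bases before the start. No match to any of the 4 motifs lay within the Ccl3, Ccl6 and Ccl12 windows. Of all 32851 RefSeq promoters of the same length, 9.74% held an NF-kB-like match of either form, 3.44% the interferon-type letters and 7.81% the AP-1-like letters, against 3, 1 and 2 of the 6 members. Such a match describes letters and does not show that a factor binds there.

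Counted reads per library ran from 16427886 to 32693066. Reads of 18S ribosomal RNA took 13.1% of OGD 2 and 21.3% of OGD 3, against 0.137% to 1.86% of the other 10 libraries, and lower the FPKM (the level per gene length and per library depth) of every gene in those 2 libraries. The slope of log2 expression on log2 gene length, a measure of how evenly long and short transcripts were sampled, reached from -0.06 in Acacetin 1 to 0.45 in Acacetin 3, with the other 10 libraries between these values. Of the 14 microglia and macrophage markers, 11 averaged at least 1 FPKM, and their summed FPKM was 2525 to 2789 in Acacetin, 2101 to 2883 in OGD and 2671 to 3244 in Control libraries. Of these markers P2ry12 (0.013 FPKM), Ptprc (0.354 FPKM) and Cx3cr1 (0.587 FPKM) averaged below 1 and the microglial gene Tmem119 1.88 FPKM, whereas the myeloid genes Cd68 (594 FPKM) and Lyz2 (1091 FPKM) were high. Summed markers of astrocytes, neurons, oligodendrocytes, endothelial cells and fibroblasts stayed at or below 0.39 FPKM in every library. In these bulk samples, fewer cells of a type and less RNA per cell cannot be told apart.

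Per length, the members spanned from some of the most abundant transcripts of the cells to one that was barely detected. In Acacetin libraries the order of mean FPKM was Ccl4 (1774 ± 321), Ccl3 (1641 ± 477), Ccl7 (934 ± 109), Ccl2 (811 ± 187), Ccl9 (42.0 ± 3.4), Ccl6 (19.5 ± 7.1), Cxcl2 (18.4 ± 5.6), Ccl12 (13.8 ± 1.2), Cxcl10 (3.47 ± 1.48) and Cxcl16 (0.013 ± 0.019; SD, n = 4 for all). The OGD order was Ccl4 (1250 ± 322), Ccl3 (1111 ± 345), Ccl7 (683 ± 121), Ccl2 (596 ± 128), Ccl9 (46.4 ± 8.2), Ccl12 (21.5 ± 3.7), Cxcl2 (14.8 ± 4.6), Ccl6 (13.3 ± 4.3), Cxcl10 (4.52 ± 2.07) and Cxcl16 (0.040 ± 0.029). Control libraries had Ccl3 (4605 ± 1294), Ccl4 (2603 ± 108), Ccl2 (966 ± 231), Ccl7 (577 ± 84), Ccl9 (45.0 ± 7.6), Cxcl2 (31.6 ± 9.2), Ccl12 (18.04 ± 3.03), Ccl6 (8.79 ± 1.96), Cxcl10 (8.01 ± 3.75) and Cxcl16 (0.005 ± 0.010). Neighbours in these orders whose ranges overlapped were Ccl4 with Ccl3, Ccl7 with Ccl2, Ccl6 with Cxcl2 and Cxcl2 with Ccl12 in Acacetin; Ccl4 with Ccl3, Ccl3 with Ccl7, Ccl7 with Ccl2, Ccl12 with Cxcl2 and Cxcl2 with Ccl6 in OGD; and Ccl9 with Cxcl2 and Ccl6 with Cxcl10 in Control. All other neighbours were separated.

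Ccl3 ranked 12th to 62nd among the 24728 genes with an FPKM in Acacetin libraries, 26th to 64th in OGD libraries and 4th to 11th in Control libraries. Ccl4 stood at ranks 20 to 31, 33 to 49 and 16 to 20 in the same groups. The order of Ccl2 and Ccl7 was turned round between groups. Ccl7 was above Ccl2 in FPKM in every Acacetin and every OGD library, and Ccl2 stood above Ccl7 in every Control library.

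**Figure D1:**
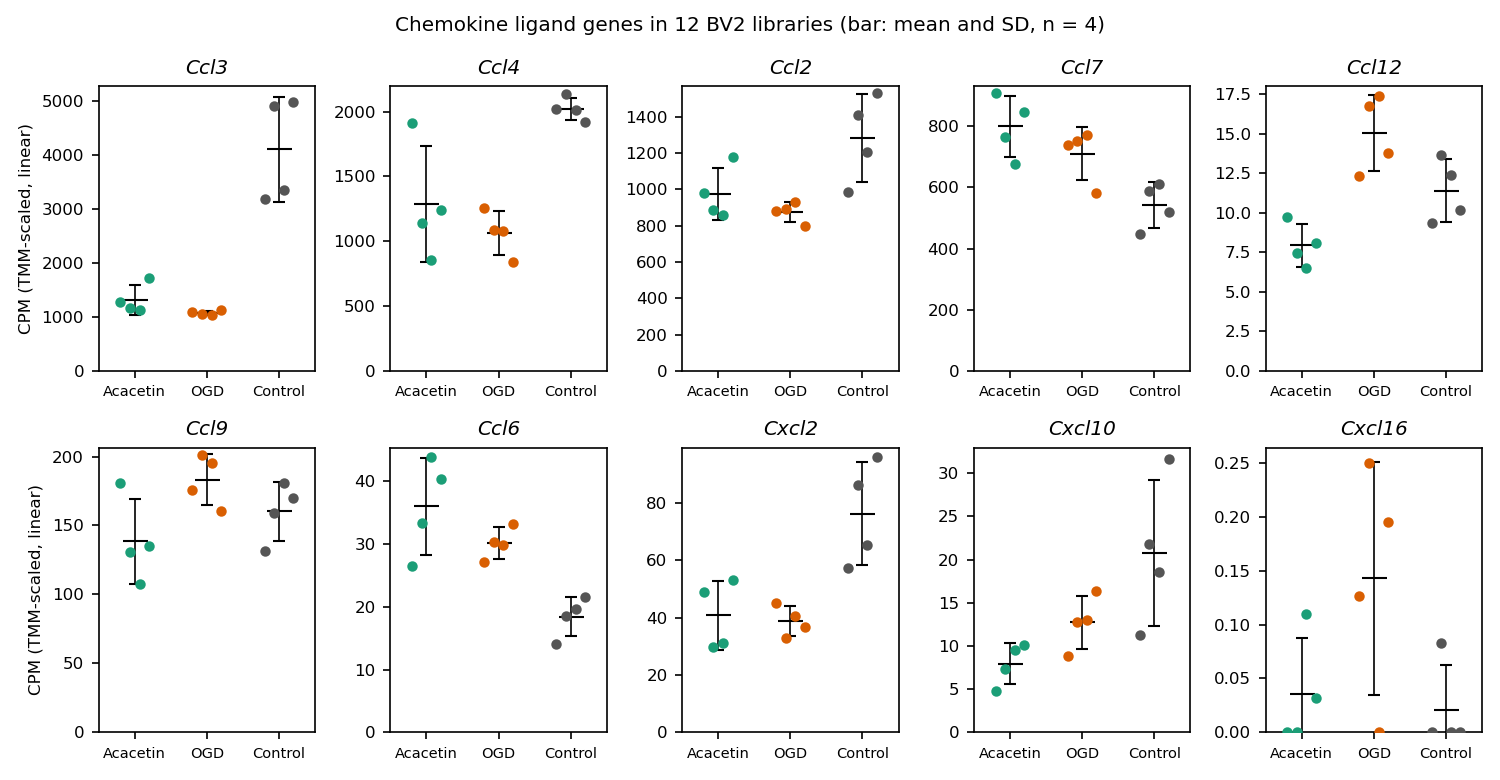
Level of each of the 10 chemokine ligand genes in CPM (TMM-scaled, linear axis from 0) in 4 Acacetin, 4 OGD and 4 Control libraries; points are libraries, bars the mean and SD. Ccl2, Ccl3, Ccl4, Cxcl2 and Ccl6 separate the OGD from the Control libraries, and Ccl12 lies at 6.51 to 9.74 CPM in Acacetin, below all OGD libraries at 12.3 to 17.4 CPM.

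The following levels are in CPM (reads of a gene relative to the reads of its library), scaled to a common library composition (TMM), which compare a gene between libraries but not with other genes. Differences are log2 fold changes from edgeR's quasi-likelihood test, with the standard error and a p-value adjusted by Benjamini-Hochberg over all 13249 genes tested; genes whose adjusted p lay under 0.05 are said to be called, to rise or to fall. Of the 10 members, 9 passed the filter on low counts and Cxcl16 did not.

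OGD set against Control gave falls in Ccl3, Ccl4, Cxcl2 and Ccl2 and a rise in Ccl6. That was 4 lower and 1 higher of the 9 tested members, while 28.8% of all tested genes were called (12.6% lower, 16.2% higher). The 4 other members, Cxcl10, Ccl7, Ccl12 and Ccl9, did not pass the test. The median log2 fold change was -0.55 over the 9 members and 0.03 over all tested genes. Groups were free of overlap in 5 of 9 members and in 36.0% of all genes. With the 18S-rich libraries OGD 2 and OGD 3 left out, the count of called members was 2 (Ccl3 and Ccl4) instead of 5. Over all genes the count was then 2010 of 13832 tested, instead of 3813 of 13249.

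In Acacetin against OGD, edgeR called 0 of 9 members, and 0% of all tested genes were called. At an unadjusted p under 0.05, 3 members (Ccl12, Ccl9 and Cxcl10), all lower in Acacetin, stood beside 5.17% of all genes. The limma fits on log2 FPKM also called 0 members, and DESeq2 called 1, Ccl12, beside 32 of the 24934 genes over all. Acacetin and OGD libraries did not overlap for Ccl12, which was lower, and for Ccl3, which was higher in Acacetin, that is for 2 of 9 members against 2.35% of all genes. The median log2 fold change was 0.16 over the members and -0.02 over all tested genes.

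Acacetin against Control gave 6 called members of 9, with Ccl3, Cxcl10, Cxcl2 and Ccl4 lower and Ccl6 and Ccl7 higher, where 26.9% of all tested genes were called (12.9% lower, 14.0% higher). Ccl12, Ccl2 and Ccl9 did not pass the test. Their median log2 fold change over the 9 members was -0.52, against 0.08 over all tested genes. In 6 of 9 members, and in 25.7% of all genes, the groups did not overlap. The comparisons share libraries: each group enters 2 of the 3.

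**Figure D2:**
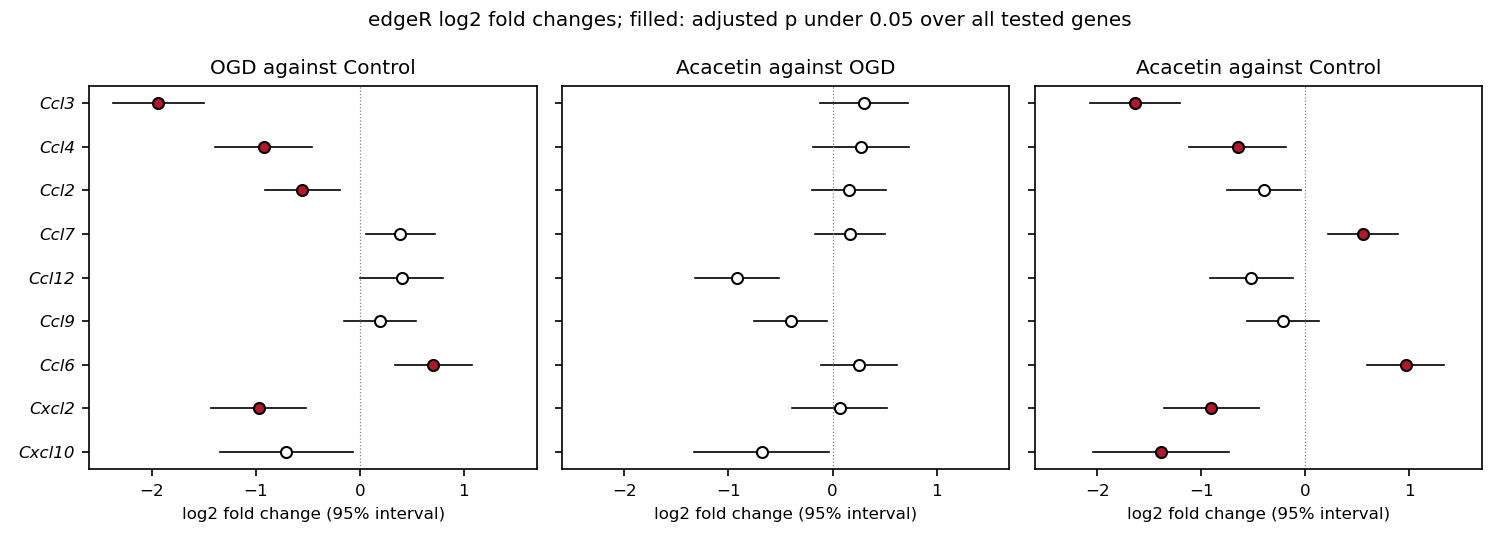
Log2 fold change (horizontal axis) with its 95% interval for the 9 tested chemokine ligand genes in OGD against Control, Acacetin against OGD and Acacetin against Control; filled points have an adjusted p under 0.05. Ccl3 has the lowest value against Control in both groups (-1.94 in OGD and -1.64 in Acacetin), Ccl6 the highest (0.71 and 0.97), and no point is filled in Acacetin against OGD.

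Ccl3 and Ccl4, the macrophage inflammatory protein-1 alpha and beta genes, were the members with the most reads. Ccl3 (ENSMUSG00000000982.6, chromosome 11) had 1278, 1165, 1123 and 1726 CPM in Acacetin 1 to 4, 1086, 1051, 1034 and 1123 CPM in OGD 1 to 4, and 3182, 4909, 3361 and 4994 CPM in Control 1 to 4. All Acacetin and OGD libraries were far below all Control libraries, and the 4 OGD libraries lay closest together, with a coefficient of variation of 3.66% against 20.9% in Acacetin and 23.7% in Control. The log2 fold change was -1.94 ± 0.20 in OGD against Control (adjusted p = 5.98e-05) and -1.64 ± 0.20 in Acacetin against Control (adjusted p = 0.000219). Acacetin minus OGD gave 0.30 ± 0.20 (adjusted p = 0.832), although each Acacetin library was above each OGD library. Ccl3 was called against Control under every alternative run.

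Ccl4 (ENSMUSG00000018930.4, chromosome 11) had 1911, 1143, 859 and 1238 CPM in Acacetin 1 to 4, 1253, 1090, 1075 and 837 CPM in OGD 1 to 4, and 2018, 2132, 2011 and 1917 CPM in Control 1 to 4. Acacetin 1 lay just below Control 4, the other 3 Acacetin libraries lay among or near the OGD libraries, and the Control libraries were tightly grouped. It fell by 0.93 ± 0.22 on the log2 scale in OGD against Control (adjusted p = 0.00606) and by 0.65 ± 0.22 in Acacetin against Control (adjusted p = 0.0397). That second call was lost without Acacetin 2, 3 or 4 or without Control 1, 2 or 3, with adjusted p from 0.0749 to 0.107, and with only the 8 libraries compared (adjusted p = 0.0744). Between Acacetin and OGD the log2 fold change was 0.28 ± 0.22 (95% interval -0.19 to 0.74), with overlapping libraries. Within groups, Ccl4 moved against the length slope of the libraries (r = -0.885 over 12 libraries, from deviations around group means), and its part in the Ccl4 values was not tested. With the length trend removed, the log2 fold change was -0.86 in OGD and -0.48 in Acacetin, both against Control and both still called.

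Ccl2, Ccl7 and Ccl12 encode monocyte chemoattractants and lie close together on chromosome 11, yet their levels followed 3 different patterns. Ccl2 (ENSMUSG00000035385.6) had 977, 886, 856 and 1178 CPM in Acacetin 1 to 4, 878, 891, 929 and 795 CPM in OGD 1 to 4, and 983, 1406, 1205 and 1531 CPM in Control 1 to 4. The OGD libraries were below all Control libraries, and the Acacetin libraries overlapped both groups. The log2 fold change was -0.55 ± 0.17 in OGD against Control (adjusted p = 0.0234), -0.40 ± 0.17 in Acacetin against Control (adjusted p = 0.0930) and 0.16 in Acacetin against OGD (95% interval -0.20 to 0.52). The call in OGD against Control was lost without OGD 1, OGD 2, OGD 4 or Control 2 (adjusted p from just over 0.05 to 0.0724), without both OGD 2 and 3 (0.0723) and after removal of the length trend (0.0714). Its log2 fold change ran from -0.69 to -0.48 over the alternatives. In Acacetin against Control, DESeq2 alone of the alternatives called Ccl2, with a log2 fold change of -0.39 (adjusted p = 0.0440). Ccl2 overlaps Gm17268 on the other strand, which was not found by symbol among the counted genes.

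Ccl7 (ENSMUSG00000035373.3, chromosome 11) had 909, 766, 675 and 847 CPM in Acacetin 1 to 4, 739, 751, 773 and 581 CPM in OGD 1 to 4, and 448, 589, 612 and 520 CPM in Control 1 to 4. Every Acacetin library exceeded every Control library, and OGD 4 alone of the OGD libraries fell within the Control range. Ccl7 rose by 0.56 ± 0.16 on the log2 scale in Acacetin against Control (adjusted p = 0.0177), a call lost without Control 1 (adjusted p = 0.0627). In OGD against Control the log2 fold change was 0.39 ± 0.16 (adjusted p = 0.0767), and it was called without OGD 4 (adjusted p = 0.0393), with only those 8 libraries (0.0376) and with the length trend removed (0.0255). Acacetin against OGD gave 0.17 on the log2 scale (95% interval -0.16 to 0.50).

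Ccl12 (ENSMUSG00000035352.4, chromosome 11), the mouse gene for monocyte chemotactic protein-5, had 9.74, 7.48, 6.51 and 8.11 CPM in Acacetin 1 to 4, 12.3, 16.7, 17.4 and 13.8 CPM in OGD 1 to 4, and 9.33, 13.6, 12.4 and 10.2 CPM in Control 1 to 4. It was the only member for which all Acacetin libraries were below all OGD libraries. The log2 fold change in Acacetin against OGD was -0.92 ± 0.19, with a 95% interval from -1.32 to -0.52. Its unadjusted p was 0.000224, the 13th smallest of the 13249 genes, and its adjusted p was 0.228 in edgeR and 0.00249 in DESeq2. Under the other alternatives the adjusted p was at least 0.0715 and the log2 fold change ran from -1.03 to -0.59. Against Control, the log2 fold change was 0.40 ± 0.19 in OGD (adjusted p = 0.125) and -0.52 ± 0.19 in Acacetin (adjusted p = 0.0527). The last value was called by DESeq2 (adjusted p = 0.0233), with DESeq2's size factors (0.0450), with a mean of at least 1 CPM as filter (0.0468), without Acacetin 1 (0.0148) and without Control 1 (0.0488).

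Ccl6 and Ccl9, ligand genes of the Ccr1 group that lie next to each other, also differed. Ccl6 (ENSMUSG00000018927.4, chromosome 11) had 26.5, 33.2, 43.8 and 40.3 CPM in Acacetin 1 to 4, 27.1, 30.3, 29.8 and 33.2 CPM in OGD 1 to 4, and 14.0, 18.5, 19.6 and 21.5 CPM in Control 1 to 4. All Acacetin and OGD libraries were above all Control libraries. Ccl6 rose by 0.71 ± 0.17 on the log2 scale in OGD against Control (adjusted p = 0.00738) and by 0.97 ± 0.17 in Acacetin against Control (adjusted p = 0.00145). The rise in OGD was not called by limma on log2(FPKM + 1) (adjusted p = 0.193), on log2(FPKM + 0.1) (0.164) or without OGD 2 and 3 (0.0758), and the rise in Acacetin was called under every alternative. Acacetin and OGD overlapped, with a log2 fold change of 0.26 (95% interval -0.11 to 0.62). The gene shares its place with E230016K23Rik on the other strand, which averaged 4.60 ± 1.60 CPM in Acacetin, 3.89 ± 1.07 in OGD and 4.15 ± 0.55 in Control (SD, n = 4 each), and the strand setting of the counting was not given in the sources used here.

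Ccl9 (ENSMUSG00000019122.9, chromosome 11) had 181, 131, 107 and 135 CPM in Acacetin 1 to 4, 176, 201, 196 and 161 CPM in OGD 1 to 4, and 132, 159, 181 and 170 CPM in Control 1 to 4. The 3 groups overlapped, and Acacetin 1 stood among the OGD libraries while the other 3 Acacetin libraries lay below them. Log2 fold changes were 0.19 ± 0.16 in OGD against Control (adjusted p = 0.411), -0.40 ± 0.16 in Acacetin against OGD (unadjusted p = 0.0262, adjusted p = 0.8287) and -0.21 ± 0.16 in Acacetin against Control (adjusted p = 0.349). The gene was called in none of these comparisons under any alternative.

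Within groups, the levels of Ccl6 rose with the length slope of the libraries (r = 0.756 over 12 libraries, from deviations around group means), and those of Ccl9 (-0.776), Ccl7 (-0.704) and Ccl12 (-0.645) fell with it. Ccl3 (0.168), Ccl2 (-0.067) and Cxcl2 (-0.14) had values nearer to 0, and Cxcl10 had 0.663. In Acacetin 1, the library with the lowest slope, Ccl4, Ccl7, Ccl9 and Ccl12 were at their highest of the 4 Acacetin libraries and Ccl6 and Cxcl10 at their lowest. The part of this slope in the members' values was not tested beyond the fit with the trend removed, in which the log2 fold changes against Control were 0.74 (OGD) and 1.17 (Acacetin) for Ccl6, 0.45 and 0.79 for Ccl7, and 0.16 and -0.20 for Ccl9.

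Cxcl2, a neutrophil attractant gene, and Cxcl10 were the measurable CXC members. Cxcl2 (ENSMUSG00000058427.11, chromosome 5) had 49.1, 29.8, 31.1 and 53.1 CPM in Acacetin 1 to 4, 44.9, 32.9, 40.6 and 36.6 CPM in OGD 1 to 4, and 57.1, 86.2, 65.3 and 95.9 CPM in Control 1 to 4. All Acacetin and OGD libraries were below all Control libraries, while Acacetin and OGD overlapped throughout. Cxcl2 fell by 0.97 ± 0.21 on the log2 scale in OGD against Control (adjusted p = 0.00400) and by 0.90 ± 0.21 in Acacetin against Control (adjusted p = 0.00744). The first call was lost without OGD 2 and 3 (adjusted p = 0.0523) and the second with limma on log2(FPKM + 1) (0.0545). In Acacetin against OGD the log2 fold change was 0.07 (95% interval -0.38 to 0.53), and it changed sign without Acacetin 1 (-0.03) or Acacetin 4 (-0.08).

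Cxcl10 (ENSMUSG00000034855.14, chromosome 5) had 4.84, 7.31, 9.54 and 10.1 CPM in Acacetin 1 to 4, 8.87, 12.7, 13.0 and 16.4 CPM in OGD 1 to 4, and 11.3, 21.8, 18.5 and 31.6 CPM in Control 1 to 4. Its means stood lowest in Acacetin (7.94 ± 2.39 CPM), between in OGD (12.8 ± 3.1) and highest in Control (20.8 ± 8.5), and neighbouring groups overlapped while Acacetin and Control did not. The fall in Acacetin against Control was called, with a log2 fold change of -1.39 ± 0.30 (adjusted p = 0.00495), except with limma on log2(FPKM + 1) (adjusted p = 0.0525). In OGD against Control it was -0.71 ± 0.30 (adjusted p = 0.0943), called without Control 1 (0.0321) or with only those 8 libraries (0.0437). With the replicate number as a block it was -0.65 and also called (adjusted p = 0.00621), though the labels do not say that these numbers pair libraries. In Acacetin against OGD it was -0.68 ± 0.30 (unadjusted p = 0.0411, adjusted p = 0.8287). Cxcl10 overlaps Art3 on the other strand, which had 15 to 64 reads in each library.

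Cxcl16 (ENSMUSG00000018920.12, chromosome 11) had 0, 0, 4 and 1 reads in Acacetin 1 to 4, 4, 5, 0 and 6 reads in OGD 1 to 4, and 0, 2, 0 and 0 reads in Control 1 to 4. At this depth the gene was at the limit of detection in all 3 groups, and the main edgeR fit left it out. DESeq2, which took in all 10 members in Acacetin against OGD, did not call it. The gene Zmynd15, which overlaps it on the other strand, had 0 to 6 reads.

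**Figure D3:**
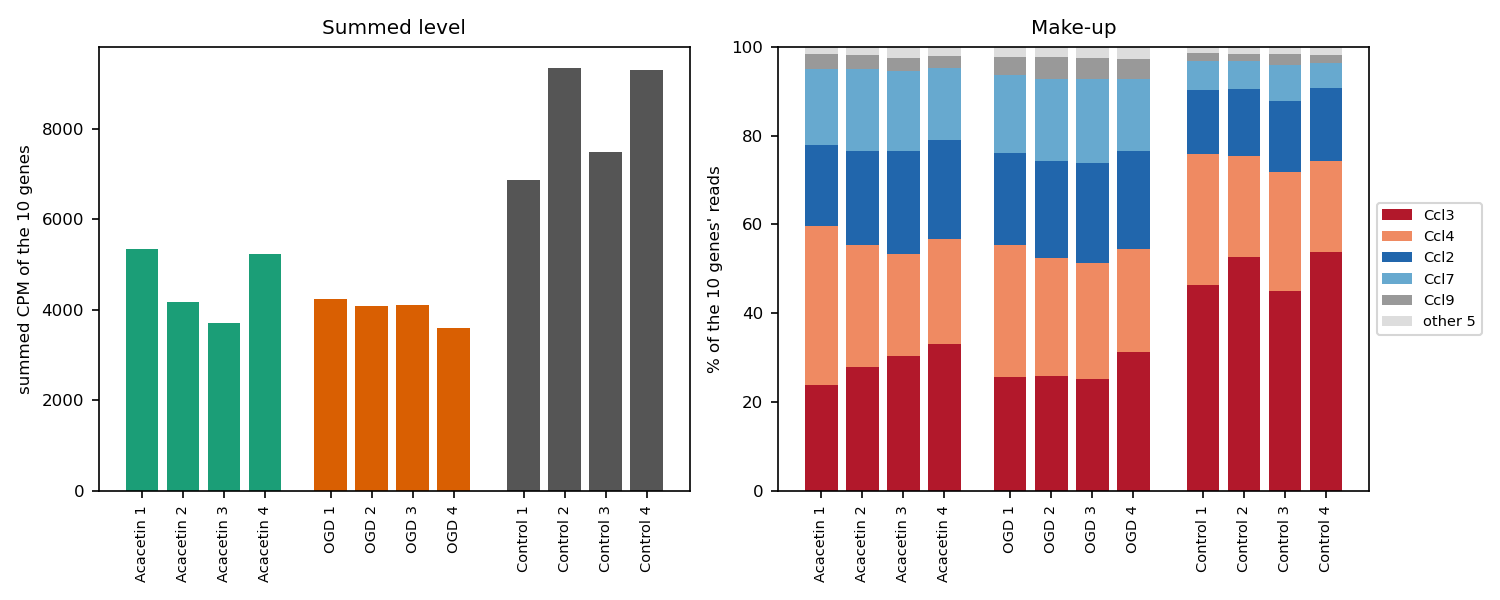
Left, summed CPM of the 10 genes in each of the 12 libraries (bars from 0); right, the percent of those summed reads that each gene took. The sums lie at 3596 to 4225 CPM in OGD and 6854 to 9335 CPM in Control, with Acacetin at 3712 to 5346 CPM, and the Ccl3 share is larger and the Ccl7 share smaller in every Control library.

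Summed over the 10 members, chemokine transcripts amounted to 4615 ± 803 CPM in Acacetin, 4001 ± 278 CPM in OGD and 8242 ± 1264 CPM in Control libraries (SD, n = 4 each). Every Acacetin and every OGD library was below every Control library. The make-up of this sum differed as well. Ccl3 took 28.8 ± 3.8% of it in Acacetin, 27.0 ± 2.8% in OGD and 49.4 ± 4.4% in Control. Ccl7 took 17.4 ± 1.0%, 17.7 ± 1.2% and 6.66 ± 1.09% in the same groups, and Ccl2 21.3 ± 2.1%, 21.8 ± 0.8% and 15.5 ± 1.0%. The Ccl4 share was 27.5 ± 5.8% in Acacetin, 26.5 ± 2.6% in OGD and 25.0 ± 4.0% in Control, with overlapping libraries. These shares add up to a fixed total, so a lower Ccl3 share raises the others by construction.

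Ratios between members of 1 cluster within a library do not depend on depth or on scaling between libraries. The part of the length slope in them was not tested beyond the fit with the trend removed. Within groups, Ccl9 (r = -0.776) and Ccl6 (0.756) followed that slope in opposite directions. The pairs below were chosen after the values were seen and are given without a test. Ccl2 had 1.08, 1.16, 1.27 and 1.39 reads per Ccl7 read in Acacetin 1 to 4, 1.19, 1.19, 1.20 and 1.37 in OGD 1 to 4, and 2.20, 2.39, 1.97 and 2.94 in Control 1 to 4. The log2 ratio averaged 0.28 ± 0.16 in Acacetin, 0.30 ± 0.10 in OGD and 1.23 ± 0.25 in Control, so both treated groups were apart from Control and overlapped each other. Ccl3 per Ccl4 followed the same course, with a log2 ratio of 0.08 ± 0.48 in Acacetin, 0.03 ± 0.27 in OGD and 1.00 ± 0.35 in Control.

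Ccl7 per Ccl12 set Acacetin apart from both other groups. There were 93.3, 102, 104 and 104 Ccl7 reads per Ccl12 read in Acacetin 1 to 4, 60.0, 44.9, 44.4 and 42.1 in OGD 1 to 4, and 48.0, 43.1, 49.3 and 51.1 in Control 1 to 4. The log2 ratio was 6.66 ± 0.08 in Acacetin, 5.57 ± 0.23 in OGD and 5.58 ± 0.11 in Control, and it stayed 1.07 higher in Acacetin than in OGD with the length trend removed. Ccl9 per Ccl6 had log2 ratios of 1.95 ± 0.62 in Acacetin, 2.61 ± 0.22 in OGD and 3.13 ± 0.11 in Control. All Control libraries were above all others for that pair, and Acacetin 1 lay above the OGD libraries while the other 3 lay below them. With the length trend removed, log2 ratios in OGD minus Control differed by -0.57 for Ccl9/Ccl6, -0.94 for Ccl2/Ccl7 and -0.97 for Ccl3/Ccl4. Acacetin minus Control gave -1.30, -0.97 and -0.92 for the same pairs.

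**Figure D4:**
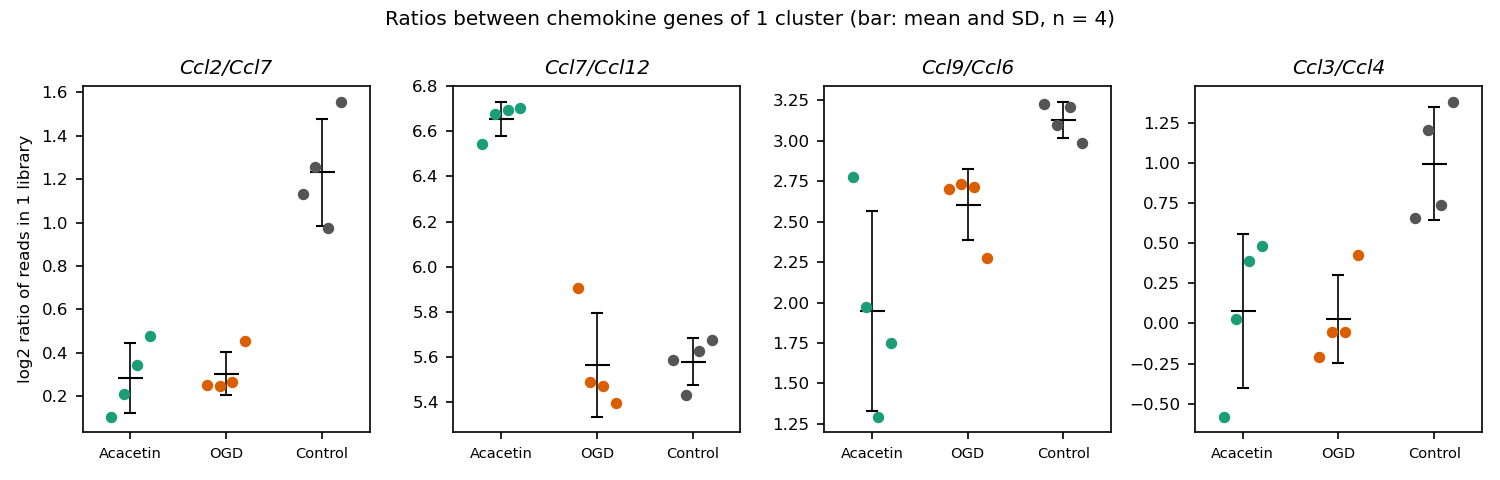
Log2 ratio of reads between 2 chemokine genes of a cluster within each library, for 4 Acacetin, 4 OGD and 4 Control libraries; points are libraries, bars the mean and SD, and each axis has its own range. Ccl2/Ccl7 and Ccl3/Ccl4 are higher in all Control libraries, and Ccl7/Ccl12 is higher in all Acacetin libraries (6.54 to 6.71) than in OGD (5.39 to 5.91).

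Members that varied together lay both within a cluster and in different clusters. Over the 12 libraries, which share groups, depth and coverage, Pearson's r of log2 CPM was 0.922 for Ccl2 with Cxcl2, 0.919 for Ccl3 with Cxcl2 and 0.89 for Ccl2 with Ccl3, and from deviations around the group means it was 0.841, 0.831 and 0.882. The neighbours Ccl2 and Ccl7 had -0.316 over all libraries and 0.604 within groups, and Ccl3 with Ccl4 had 0.816 and 0.13. Within groups, Ccl7 with Ccl12 had 0.778 and Ccl4 with Ccl9 0.769, against -0.0352 and 0.217 over all libraries. Ccl6 and Cxcl10 had -0.392 over all libraries and 0.925 within groups. In Control, Ccl2, Ccl3, Cxcl2 and Cxcl10 were at their lowest in Control 1 and at their highest in Control 4. Likeness to other genes was sought among 9377 genes averaging 2 CPM or more, with model and clone names left out. Those most like Ccl3 over the 12 libraries were Snapin (r = 0.979), Insig2 (0.978) and Aoah (0.976). Those most like Cxcl10 were Rsad2 (0.961), an interferon-stimulated antiviral gene, Armc10 (0.948) and Selenop (0.939). Rsad2 averaged 10.2 ± 4.1 CPM in Acacetin, 16.4 ± 2.8 in OGD and 27.5 ± 8.9 in Control.

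Other chemokine ligands were mostly low. Of 28 listed, 21 had reads and 8 were tested, and 1 rose and 0 fell in OGD against Control. In Acacetin against Control 1 rose and 1 fell. For Acacetin against OGD, edgeR, DESeq2 and limma each called 0. There 2 of the 8 had an unadjusted edgeR p under 0.05, beside 5.17% of all tested genes. Of all tested genes, 28.8% and 26.9% were called in the comparisons of OGD and of Acacetin with Control. Ccl25, known for attracting T cells to the gut, averaged 9.54 ± 1.28 CPM in Acacetin, 9.87 ± 2.86 in OGD and 3.92 ± 0.96 in Control, and rose by 1.33 ± 0.24 on the log2 scale in OGD (adjusted p = 0.00113) and by 1.28 in Acacetin (adjusted p = 0.00178), both against Control. Ccl5, the gene next to Ccl9, averaged 48.3 ± 12.7 CPM in Acacetin, 60.5 ± 6.0 in OGD and 74.5 ± 11.0 in Control, and fell by 0.63 ± 0.17 in Acacetin against Control (adjusted p = 0.0172). That call was lost without Acacetin 4 (0.0507) or Control 3 (0.0553). Pf4, the platelet factor 4 gene, was the most abundant of this list at 165 FPKM; edgeR and DESeq2 called it in no comparison, and both limma fits on log2 FPKM called it in OGD against Control, where its edgeR log2 fold change was -0.40 (adjusted p = 0.171).

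Receptor genes through which members act were low at RNA level where they are given here. Of 24 listed receptor genes, Ccr2, Ccr6 and Ackr1 were not found by symbol among the counted genes. Of the other 21, 9 were tested. Mean FPKM over the 12 libraries was 5.12 for Cxcr3, the receptor of Cxcl10, 4.36 for Ccr1, a receptor of Ccl3, Ccl6 and Ccl9, 0.642 for Cxcr2, the receptor of Cxcl2, and 0.0075 for Cxcr6, the receptor of Cxcl16. In OGD against Control 2 receptors rose and 1 fell, and in Acacetin against Control 3 rose and 1 fell. For Acacetin against OGD, edgeR, DESeq2 and limma each called 0. There 2 of the 9 had an unadjusted edgeR p under 0.05, beside 5.17% of all tested genes. Of all tested genes, 28.8% were called in OGD and 26.9% in Acacetin, each against Control, beside 3 and 4 of the 9 receptors.

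Cxcr3 had 12.9, 13.4, 8.35 and 7.72 CPM in Acacetin 1 to 4, 15.6, 21.4, 19.5 and 17.3 CPM in OGD 1 to 4, and 3.77, 2.57, 3.85 and 2.16 CPM in Control 1 to 4. The 3 groups did not overlap, in the order OGD, Acacetin, Control. It rose by 2.58 ± 0.25 on the log2 scale in OGD (adjusted p = 4.57e-05) and by 1.78 ± 0.25 in Acacetin (adjusted p = 0.000437), each against Control, and both calls held under every alternative run. Acacetin against OGD gave -0.80 ± 0.23 (unadjusted p = 0.00430, adjusted p = 0.713). Its ligand Cxcl10 was highest in Control, where Cxcr3 was lowest.

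Ccr1 averaged 18.6 ± 5.1 CPM in Acacetin, 14.5 ± 2.2 in OGD and 9.08 ± 2.84 in Control, and rose by 1.03 ± 0.24 on the log2 scale in Acacetin against Control (adjusted p = 0.00754); in OGD against Control it had 0.68 ± 0.24 (adjusted p = 0.0510). Cx3cr1, the fractalkine receptor of microglia, averaged 2.73 ± 0.60 CPM in Acacetin, 2.10 ± 0.47 in OGD and 4.39 ± 0.33 in Control. It fell by 1.07 ± 0.24 in OGD (adjusted p = 0.00481) and by 0.68 in Acacetin (adjusted p = 0.0461), the second call being lost without Acacetin 1, 2 or 3 or any single Control library, without Acacetin 1 and 3, with no filter, with only the 8 libraries compared and with both limma fits (adjusted p up to 0.201). Ccr4, at 5 to 38 reads a library, rose by 1.44 ± 0.37 in OGD (adjusted p = 0.0101) and by 1.13 in Acacetin (adjusted p = 0.0353), neither of which was called by limma on log2 FPKM. The Acacetin call was lost without Acacetin 3 or 4 or Control 3 or 4, without Acacetin 1 and 3, with no filter and with only the 8 libraries compared, with adjusted p from 0.0602 to 0.113.

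A list of 21 regulator genes held genes of chemokine transcription and mRNA decay and the protease genes Adam10, Adam17 and Dpp4. Of these 21, 20 were tested, and 4 rose and 3 fell in OGD against Control. In Acacetin against Control 3 rose and 5 fell. For Acacetin against OGD, edgeR and limma called 0 and DESeq2 called 1, Irf7, beside 32 of the 24934 genes over all. There 3 of the 20 had an unadjusted edgeR p under 0.05, beside 5.17% of all tested genes. These 7 and 8 of 20 stand beside 28.8% and 26.9% of all tested genes called in the comparisons with Control. Zc3h12a, which encodes the mRNA-degrading enzyme Regnase-1, averaged 59.1 ± 11.2 CPM in Acacetin, 70.6 ± 5.4 in OGD and 38.3 ± 7.0 in Control, a rise of 0.88 ± 0.16 on the log2 scale in OGD against Control (adjusted p = 0.00117). Zfp36, the tristetraprolin gene, whose protein speeds the decay of AU-rich mRNAs, averaged 53.1 ± 8.0 CPM in Acacetin, 63.8 ± 3.7 in OGD and 102 ± 16 in Control. It fell by 0.68 ± 0.14 in OGD (adjusted p = 0.00306) and by 0.94 in Acacetin (adjusted p = 0.000622), each against Control. These 2 mRNA decay genes moved in opposite directions in OGD against Control.

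Among the NF-kB genes, Nfkbid, a nuclear IkB protein gene, averaged 55.2 ± 11.9 CPM in Acacetin, 72.5 ± 6.7 in OGD and 24.3 ± 5.4 in Control. Relb, a subunit of the alternative pathway, averaged 14.4 ± 3.2 CPM, 16.6 ± 2.7 and 27.2 ± 3.6 in the same groups, with a log2 fold change of -0.92 in Acacetin against Control, and Nfkb2 had -0.77. In OGD against Control the falls of Relb (adjusted p = 0.0652) and Nfkb2 (0.103) were not called without OGD 2 and 3. Nfkbia, the IkB alpha gene and the most abundant of the list at 88.5 FPKM, averaged 161 ± 27 CPM in Acacetin, 169 ± 14 in OGD and 171 ± 14 in Control and was called in no comparison by edgeR, DESeq2 or limma. Nfkbib, Irf3 and Bcl3, at 41.5, 21.0 and 11.6 FPKM, were not called by edgeR or DESeq2 in any comparison, and both limma fits called Nfkbib in OGD against Control (edgeR log2 fold change -0.32, adjusted p = 0.222). The subunit gene Rela had a log2 fold change of 0.40 in OGD against Control (adjusted p = 0.0474), which was not called without any single library and in 6 other alternatives.

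Interferon regulatory factor genes differed from each other. Irf1 averaged 13.5 ± 1.3 CPM in Acacetin, 17.0 ± 0.9 in OGD and 10.1 ± 0.9 in Control, and rose by 0.75 ± 0.14 on the log2 scale in OGD against Control (adjusted p = 0.00136), though not by limma on log2 FPKM (adjusted p of 0.0951 and 0.0875). Its rise of 0.41 in Acacetin against Control was lost without any single library other than Acacetin 3, without Acacetin 1 and 3, with no filter, with only the 8 libraries compared and with both limma fits (adjusted p from 0.0538 to 0.132). Irf7, the interferon-inducible regulator of interferon genes, averaged 124 ± 38 CPM in Acacetin, 226 ± 8 in OGD and 206 ± 23 in Control. It fell by 0.73 ± 0.18 in Acacetin against Control (adjusted p = 0.00903) and had -0.87 ± 0.18 in Acacetin against OGD (unadjusted p = 0.000256, adjusted p = 0.242), with no overlap between the groups in either. Zfp36l1, another mRNA decay gene, fell by 0.89 in Acacetin against Control, a call lost without Acacetin 2 or Control 1, 2 or 4 (adjusted p from 0.0531 to 0.129) and with both limma fits (0.192 and 0.185).

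**Figure D5:**
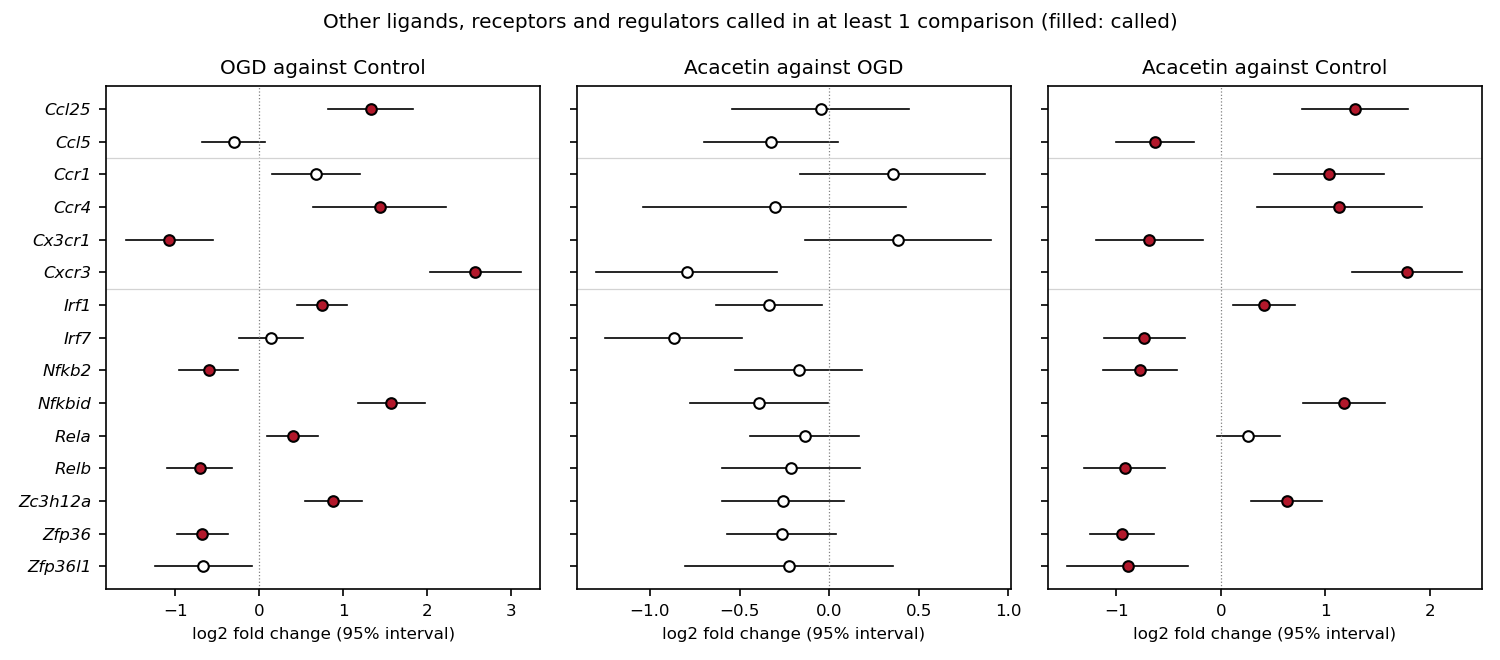
Log2 fold change with its 95% interval for the other ligand, receptor and regulator genes called in at least 1 comparison, in OGD against Control, Acacetin against OGD and Acacetin against Control (each panel has its own axis range); filled points have an adjusted p under 0.05. Cxcr3 has the highest value against Control (2.58 in OGD, 1.78 in Acacetin), and no point is filled in Acacetin against OGD.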

How the data were processed

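RNA from 12 BV2 samples had been made into stranded mRNA libraries and read in pairs, per the labels' protocols. Per the submitters' processing notes, bcl2fastq, HISAT2, DESeq2 and build GRCm39 were used; which tool counted reads, with which strand setting and annotation, remained unstated in the sources at hand. The deposited count table holds raw counts per gene, and the authors' deposited FPKM table holds the same reads scaled by 1 depth per library and 1 length per gene. All columns matched a library by title. Genes were tested on the counts with edgeR 4.0.16 in R 4.3.3 (filterByExpr with minimum count 10 and minimum total 15, TMM, 1 quasi-likelihood fit of all 12 libraries, two-sided, Benjamini-Hochberg over 13249 genes in each comparison, no limit on the fold change). Levels between genes were compared in FPKM. Genes on the other strand came from the GENCODE mouse annotation of GRCm38, promoters and gene order from RefSeq tables of GRCm38.p6. The pipeline was tested on simulated counts. No 2 libraries of the same group agreed within sampling noise in a chi-square test over genes.

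The members and the lists of ligands, receptors and regulators were chosen with earlier results of these data known. Named beside the members are genes of these lists called in a comparison or averaging at least 10 FPKM. For Ccl3 and Cxcl10 the 3 genes of highest correlation were named, with model and clone names left out. Ccr2, Ccr6, Ackr1, Cxcr2 and Cxcr6 were added for their ligands or as unmeasured entries. The motifs and the ratio pairs were also chosen after values were seen. Alternatives were DESeq2 1.42.0, its size factors, 2 other count filters, 8 libraries only, a replicate block, limma 3.58.1 on log2(FPKM + 1) and log2(FPKM + 0.1), removal of the length trend (lowess, span 0.5), and leaving out libraries. Depth limits counting error only.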

Additional observations from a re-analysis of the deposited data

Results flagged for a closer look

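Of 30 groups of 4 libraries (10 genes in 3 groups), 1 held a library far from the others of its group: Cxcl16 in Control 2, at 0.083 CPM from 2 reads, where the other 3 Control libraries had 0 reads. For normally distributed values, chance alone flags about 1 in 20 groups of this size. That rate does not hold here, because beside 3 libraries with 0 reads any other count stands out.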

How the results depend on the processing

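The count of called members in OGD against Control was 5, kept within 4 to 7 under all alternatives but 1, and was 2 without OGD 2 and 3; leaving out 1 library gave 4 to 6. In Acacetin against OGD it was 0 under all alternatives except DESeq2, which called 1, and 0 to 0 when 1 library was left out. In Acacetin against Control it was 6, between 4 and 8 under the alternatives and 5 to 7 when 1 library was left out. Without 1 library each, the Acacetin minus OGD log2 fold change of Cxcl2 ran from -0.082 to 0.20, and the log2 ratio differences ran from -0.085 to 0.038 for Ccl2/Ccl7 (Acacetin minus OGD), from -0.13 to 0.043 for Ccl7/Ccl12 (OGD minus Control, with 0.00041 after removal of the length trend) and from -0.083 to 0.27 for Ccl3/Ccl4 (Acacetin minus OGD); the ratio alternatives were chosen after seeing the data. The cause of these changes was not tested.

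Over all tested genes, the called count was 3813 in OGD against Control and 2010 without OGD 2 and 3. It was 0 in Acacetin against OGD, against 32 by DESeq2, 8 with no filter, 1 with only the 8 libraries, 4 with the length trend removed, 4 without Acacetin 1 and 3, and 9 without Acacetin 1. It was 3559 in Acacetin against Control and 5818 without Acacetin 1. The median log2 fold change of all genes moved beyond 0.1 with limma on log2(FPKM + 0.1) (-0.11, 0.24 and 0.17 in OGD against Control, Acacetin against OGD and Acacetin against Control), with log2(FPKM + 1) in Acacetin against OGD (0.16), with no filter in Acacetin against Control (0.11) and without Control 4 in that comparison (0.13).

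Whether the replicate numbers pair the libraries is not stated in the labels. Same-number correlations of deviations ran from -0.291 to 0.506 over the 3 comparisons. Those of number 1 (0.167 to 0.371) and number 4 (0.38 to 0.506) were positive in all 3, and those of numbers 2 and 3 had both signs. They were not set against correlations between different numbers, so they do not decide the question. With the replicate number as a block, 6 members were called in OGD against Control (Cxcl10 was added, with a log2 fold change of -0.65 and adjusted p = 0.00621), 0 in Acacetin against OGD and 6 in Acacetin against Control. Over all genes the block called 2 in Acacetin against OGD. Against Control, the alternatives other than leaving out 1 library, the block among them, called 2010 to 4882 genes in OGD and 2410 to 4342 in Acacetin. The block's own counts there are not given, so its member counts have no share beside them. Of the other genes named, Cx3cr1 in Acacetin against Control was not called with the block (adjusted p = 0.0565).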
